A study of Mus musculus with 2 samples.

Results

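Oxidative phosphorylation is carried out by 5 protein complexes of the inner mitochondrial membrane, and the genes described here are those that encode their subunits and some of their assembly factors. They were chosen by gene symbol alone: 92 nuclear genes with symbols beginning Ndufa, Ndufb, Ndufc, Ndufs, Ndufv, Cox4 to Cox8, Atp5 or Uqcr, together with Sdha to Sdhd, and 13 mitochondrial genes (mt-Nd, mt-Cytb, mt-Co and mt-Atp), 105 of the 28692 genes in the count tables. By role they comprise 7 core subunits, 31 accessory subunits and 7 assembly factors of complex I, 4 genes of complex II, 8 of complex III, 18 of complex IV and 17 of complex V on the nuclear side, and 7, 1, 3 and 2 mitochondrial genes of complexes I, III, IV and V.

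Electrons enter the chain at complex I (NADH dehydrogenase) or complex II (succinate dehydrogenase), pass through complex III (the cytochrome bc1 complex) to complex IV (cytochrome c oxidase) and reduce oxygen, and the proton gradient built on the way drives complex V (ATP synthase). Most subunits are encoded in the nucleus and imported, whereas central subunits of every complex except complex II are transcribed from the mitochondrial genome by a separate RNA polymerase, so that the transcripts of one complex come from 2 genomes. Resting lymphocytes draw much of their ATP from this pathway, and several subunits of complexes IV and V exist as isoforms encoded by different genes.

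CD45+ leukocytes were sorted from livers of 6-week-old female mice, and 2 Chromium 3′ libraries were made, 1 of a vehicle group and 1 of a group that drank water with ampicillin and metronidazole at 1 mg/mL each and vancomycin and neomycin at 0.5 mg/mL each. Antibiotic water was given for at least 1 week by the methods and for 3 weeks where hepatic immune cells were counted, and which of these applied here is not stated. C57BL/6 is among the strains that the study used, but the strain and number of mice behind each library and any pooling are not given in the sources used here. With 1 library per group no difference between the libraries could be tested, and the treatment, the mice, the capture and the library cannot be told apart.

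The vehicle library held 9002 cells and the antibiotic library 7050 cells with at least 1500 unique molecular identifiers (UMIs, one per captured transcript) and under 10% of them from mitochondrial genes, with medians of 3515 and 3331 UMIs per cell. Cells were placed in 5 classes by UMIs of few genes: B cells (Cd79a, no Cd3e; 2883 vehicle and 1289 antibiotic cells), plasmacytoid dendritic cells (pDC, Siglech; 153 and 29), NK cells (Ncr1, no CD3 genes; 246 and 94), NKT-like cells (Trac and Cxcr6; 3514 and 4175) and other T cells (Trac, no Cxcr6; 786 and 650). The B cell marker list summed to 9705 and 9834 CPM (UMIs of a gene or list scaled to a total of 1000000) in the B class and to at most 359 CPM in the other classes, and the NK list to 16166 and 11906 CPM in the NK class. The T cell classes were less distinct, with the NKT-like list at 3862 and 3832 CPM in its own class, 1743 and 2006 CPM in NK cells and 1728 and 2138 CPM in other T cells, and the other T list at 3130 and 2628 CPM in its own class and 2264 and 1954 CPM in NKT-like cells. These lists include genes of the class rules (Cd79a, Ncr1, Trac, Cxcr6 and Cd3e). Part of each contrast was therefore fixed by the rules, and the sums are no independent check of the classes. In the pDC class 1 vehicle cell carried most of the neutrophil UMIs (list sum 5067 CPM against 0), and leaving out cells with neutrophil or erythroid RNA, a choice made after seeing the data, moved the nuclear ratio of pDC from 0.9504 to 0.946. The libraries shared 93 cell barcodes, with 86.1 expected from their sizes.

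The upstream sequence of 3 nuclear members is given because the results below turn on them: Cox6a1 is the general partner of the isoform with the sharpest class pattern, Atp5g3 was among the 3 members with a ratio above 1 in every class (each interval held 1), and Ndufc1 was among the 5 lowest members in all cells, B cells and NK cells. Each is the 250 bases before the start annotated by RefSeq (build GRCm38.p6), 5′ to 3′ on the gene's own strand, with capitals for matches to the motif letters of NRF1 (GCGCA, any base, then GCGC), ETS factors (CCGGAAG), YY1 (AAGATGG) or the CCAAT box (CCAAT), searched on both strands. The GENCODE annotation puts the starts of Cox6a1 and Ndufc1 inside these windows, at 115348981 and 51408988.
Cox6a1 (chr5:115348959-115349208, minus strand): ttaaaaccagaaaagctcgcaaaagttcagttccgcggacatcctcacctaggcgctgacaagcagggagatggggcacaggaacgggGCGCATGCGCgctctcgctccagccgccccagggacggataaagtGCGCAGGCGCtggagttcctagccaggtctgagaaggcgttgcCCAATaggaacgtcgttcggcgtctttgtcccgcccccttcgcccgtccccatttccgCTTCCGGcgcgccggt
Atp5g3 (chr2:73911327-73911576, minus strand): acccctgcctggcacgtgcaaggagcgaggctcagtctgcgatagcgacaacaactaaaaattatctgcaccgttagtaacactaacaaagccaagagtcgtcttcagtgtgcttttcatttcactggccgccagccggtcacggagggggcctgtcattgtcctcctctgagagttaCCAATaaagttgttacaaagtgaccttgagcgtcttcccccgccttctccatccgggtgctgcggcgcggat
Ndufc1 (chr3:51408956-51409205, minus strand): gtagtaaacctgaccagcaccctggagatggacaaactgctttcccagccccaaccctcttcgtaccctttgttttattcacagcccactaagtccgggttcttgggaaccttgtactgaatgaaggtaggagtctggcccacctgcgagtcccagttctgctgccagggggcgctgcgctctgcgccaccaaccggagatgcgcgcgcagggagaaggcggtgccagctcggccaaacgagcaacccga

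A window was available for 73 of the 92 nuclear members and for none of the mitochondrial ones. The NRF1 letters occurred in 13 of the 73 windows (17.8%) against 925 of 17999 windows of all genes (5.14%), and the ETS letters in 12 (16.4%) against 8.91%. The NRF1 letters nearly read the same on both strands, so that 1 place can count on each, as 1 of those in Cox6a1 does. The YY1 letters were in 0 member windows and in 4.17% of all windows, and the CCAAT letters in 43.8% and 35.7%. The median GC content was 56.4% in members and 55.2% over all windows. A match describes the letters and is no evidence of binding.

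In each class the nuclear genes took a smaller share of all UMIs in the antibiotic library and the mitochondrial genes a larger one, except that pDC turned to 1.01 for nuclear genes with ribosomal protein and mitochondrial genes out of the total and B cells to 0.975 for mitochondrial genes among cells of at least 3000 UMIs. Pairs of values give the vehicle library first and the antibiotic library second, and ratios are antibiotic over vehicle. In NKT-like cells nuclear members made up 2.49% and 2.17% of UMIs (ratio 0.871, 95% interval 0.867 to 0.875), while mitochondrial members made up 1.76% and 2.05% (ratio 1.17, 1.16 to 1.17). In NK cells the nuclear share was 2.56% and 2.17% (ratio 0.847, 0.821 to 0.873) and the mitochondrial share 1.3998% and 1.59% (ratio 1.14, 1.097 to 1.18). With all UMIs as the total, NKT-like and NK cells showed the widest gaps of the 5 classes in both genomes. In B cells the shares were 1.82% and 1.66% for nuclear genes (ratio 0.914) and 2.56% and 2.60% for mitochondrial genes (ratio 1.02). In other T cells they were 2.17% and 2.01% (ratio 0.925) and 2.10% and 2.19% (ratio 1.04). In pDC they were 2.71% and 2.57% (ratio 0.9504, 0.921 to 0.981) and 3.005% and 3.15% (ratio 1.05, 1.02 to 1.08). These intervals are exact and cover counting error only, so they do not include the difference between mice.

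**Figure D1:**
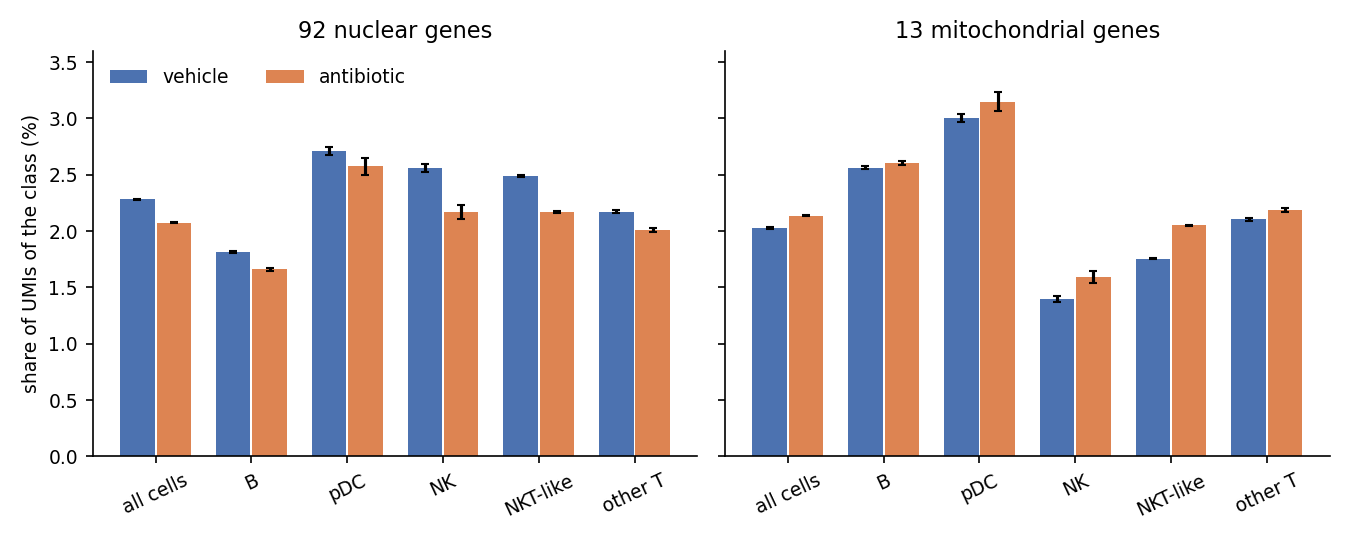
Share of UMIs (percent, y axis) taken by the 92 nuclear genes (left) and the 13 mitochondrial genes (right) in all cells and in 5 classes, vehicle in blue and antibiotic in orange, with 95% Poisson intervals as error bars. Nuclear bars are shorter in the antibiotic library in every class, from 0.847 of the vehicle value in NK cells to 0.9504 in pDC, and mitochondrial bars are taller in every class.

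The ratio of mitochondrial to nuclear UMIs uses no total and so does not depend on the scaling of the libraries. In NKT-like cells it stood at 0.706 and 0.946, 1.34 times as high (1.33 to 1.35, Wald interval, counting error only). In NK cells it was 0.547 and 0.735, 1.34 times as high (1.28 to 1.41). The other 3 classes lay closer together, at 1.11 times in B cells (1.41 and 1.57), 1.12 in other T cells (0.968 and 1.09) and 1.10 in pDC (1.11 and 1.22). In both libraries the order from highest to lowest was B cells, pDC, other T cells, NKT-like cells and NK cells. Over the other choices of cells tried, the value ranged from 1.33 to 1.35 in NKT-like cells and more widely, from 1.31 to 1.48, in NK cells. It ranged from 1.08 to 1.12 in B cells, 1.10 to 1.13 in other T cells and 1.08 to 1.16 in pDC.

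The share of nuclear genes depends on what the total contains. Cytosolic ribosomal protein genes took 32.7% of UMIs in vehicle NKT-like cells and 39.0% in antibiotic NKT-like cells, and 33.2% in both B cell groups. With ribosomal protein and mitochondrial genes left out of the total, the nuclear ratio was 0.969 in NKT-like cells, 0.901 in NK cells, 0.958 in other T cells, 0.913 in B cells and 1.01 in pDC. On that scaling the nuclear gap of NKT-like cells was narrower than those of NK, B and other T cells. That scaling also moved the median log2 ratio of all 9235 genes tested in NKT-like cells from -0.01 to 0.14. The median of nuclear members in NKT-like cells lay at -0.16 on the log2 scale relative to that of all genes, a distance that no change of the total can alter.

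Member by member, a gene was compared in a class when it had at least 100 UMIs in both libraries together, and was counted as past the fold limit when it was at least 25% higher, or at 0.8 of the vehicle value or lower. In NKT-like cells 84 of 92 nuclear members were compared, of which 71 were lower and 13 higher in the antibiotic library, and 24 were past the limit lower and 0 higher. Of all 9235 genes compared, 15.9% were past the limit lower and 12.6% higher, and their median ratio was close to even, as given above. With ribosomal protein and mitochondrial genes out of the total, 44 of the 84 were lower and 40 higher, with 3 and 2 past the limit, against 9.12% and 25.2% of all genes.

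In NK cells 60 of 68 nuclear members compared were lower, 22 past the limit lower and 2 higher, where 22.6% and 16.5% of all genes were. In B cells 66 of 82 were lower, with 8 past the limit lower and 0 higher beside 8.2% and 18.3% of all genes. In other T cells 60 of 79 were lower, with 7 past the limit lower and 0 higher beside 12.6% and 16.7%. The median log2 ratio was -0.21 in NK, -0.11 in B and -0.12 in other T cells, where all genes had medians of -0.05, 0.07 and 0.02. In pDC the members were split evenly, 37 lower and 34 higher of 71, with 8 past the limit lower and 11 higher beside 21.4% and 15.9% of all genes. Under the other total the split was 30 lower and 41 higher in pDC, 40 lower and 46 higher of 86 in all cells (66 and 20 with the full total; 10 past the limit lower and 0 higher, beside 18.3% and 13.6% of all genes) and 53 lower and 15 higher in NK cells.

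Under that total, 5 pDC members were past the limit lower and 14 higher (16.0% and 22.8% of all genes), 13 NK members lower and 4 higher (16.1% and 22.5%), 3 other T members lower and 0 higher (9.84% and 20.3%), 8 B cell members lower and 0 higher (8.25% and 18.2%) and 1 member lower and 0 higher in all cells (12.9% and 24.4%). In either direction, with the full total, 24 of 84 members were past it in NKT-like cells beside 28.5% of all genes, 24 of 68 in NK cells (39.1%), 8 of 82 in B cells (26.5%), 7 of 79 in other T cells (29.3%), 19 of 71 in pDC (37.2%) and 10 of 86 in all cells (31.9%). With ribosomal protein and mitochondrial genes left out it was 5 (34.3%), 17 (38.6%), 8 (26.5%), 3 (30.1%), 19 (38.8%) and 1 (37.3%) in the same order. Members are better counted than most genes, with a median of 6658 UMIs against 714 for all genes compared in NKT-like cells.

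**Figure D2:**
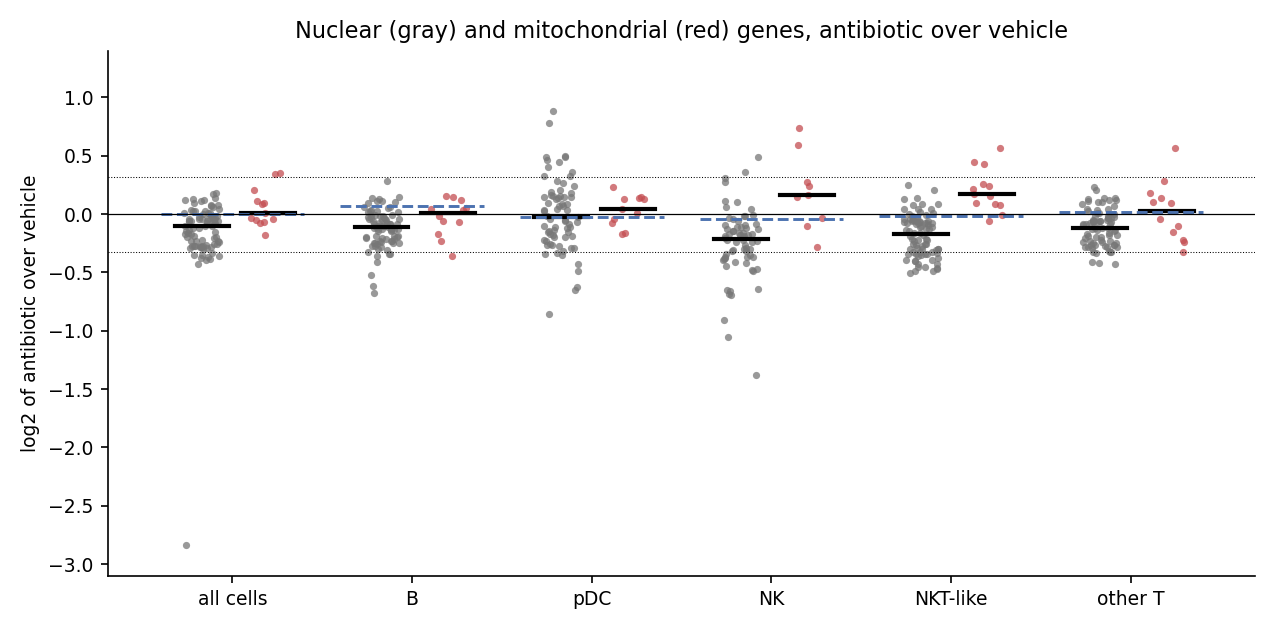
Log2 ratio of the antibiotic over the vehicle library (y axis) for each nuclear gene (gray) and mitochondrial gene (red) with at least 100 UMIs, in all cells and in 5 classes. Black bars are medians of the members, dashed lines medians of all genes and dotted lines the fold limits. Nuclear points lie below the dashed line in most classes, with a median of -0.17 in NKT-like cells, and the lone point near -2.8 in all cells is Cox6a2.

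The complexes did not differ alike. Summed over members in NKT-like cells, the ratio was 0.847 for complex V, 0.856 for complex IV and 0.868 for the accessory subunits of complex I. It was 0.945 for complex III, 0.985 for complex II (0.953 to 1.02) and 0.982 for the core subunits of complex I (0.957 to 1.01), and the latter pair of intervals held 1. The same comparison gave 0.936 for the core and 0.960 for complex II in B cells, and 0.988 and 1.20 in NK cells. Complex II sums rested on 326 and 123 UMIs in NK cells, and their interval ran from 0.965 to 1.48. All these sums have all UMIs as the total. Leaving ribosomal protein and mitochondrial genes out raises every NKT-like ratio by the same factor, as for the nuclear sum above. The side of 1 on which complexes II and III and the core lie in NKT-like cells therefore depends on the total. The order of the complexes does not.

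Among accessory subunits of complex I, which surround the catalytic core, 28 of 30 were lower in NKT-like cells with all UMIs as the total. This count depends on the total, since the split of all nuclear members there was nearly even under the other total, as given above. Ndufa3 stood at 466 and 329 CPM (ratio 0.706, 0.682 to 0.731), and Ndufc1 at 140 and 102 CPM (0.732). Ndufc1 was lower in all 5 classes, with 145 and 53.9 CPM in NK cells (0.371, 0.192 to 0.662), and Ndufb2 stood at 98.5 and 61.5 CPM in B cells (0.625, 0.531 to 0.733). Ndufa4, counted here under complex I by its symbol although its product is now placed in complex IV, was at 589 and 446 CPM in NKT-like cells. Ndufa6 had a ratio above 1 in every class, from 356 and 370 CPM in B cells (1.04, 0.970 to 1.11) to 335 and 416 CPM in pDC (1.24, 0.952 to 1.61). Its interval lay above 1 in NKT-like cells (1.11 to 1.20) and other T cells (1.07 to 1.28) and held 1 in B cells, pDC and NK cells. Ndufa1, an X-linked subunit needed for assembly, was at 323 and 170 CPM in NK cells (0.527, 0.369 to 0.735) and 245 and 193 CPM in NKT-like cells.

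The core subunits hold the flavin and the iron-sulfur clusters that carry electrons through complex I. In NKT-like cells the 7 core genes ranged from 0.893 for Ndufs8 to 1.10 for Ndufs3, and none was past the limit. Ndufs3 was higher in the 4 classes where it was compared, at 109 and 119 CPM in NKT-like cells and 101 and 111 CPM in B cells. Ndufs8 was lower in all 5, at 149 and 122 CPM in B cells and 234 and 146 CPM in pDC (0.626, 0.400 to 0.942). The assembly factors were expressed at low levels, with Ndufaf3 highest at 47.4 and 39.7 CPM in NKT-like cells, and all 7 were lower there with all UMIs as the total.

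Complex II oxidizes succinate and belongs to the tricarboxylic acid cycle as well. Sdha, its flavoprotein, stood at 127 and 128 CPM in NKT-like cells and 136 and 127 CPM in B cells. Sdhb, the iron-sulfur subunit, was at 162 and 153 CPM in NKT-like cells and Sdhc and Sdhd, the membrane anchors, at 61.3 and 58.8 CPM and 71.4 and 75.4 CPM. All 4 were inside the limit in B, NKT-like and other T cells. Sdha was past it in pDC (121 and 169 CPM, from 113 and 30 UMIs) and NK cells (98.0 and 137 CPM, from 75 and 33 UMIs). Its interval in NK cells, 0.897 to 2.13, held 1.

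In complex III, Uqcrb, a subunit at the ubiquinone site, was at 376 and 268 CPM in NKT-like cells (0.715, 0.688 to 0.743) and 413 and 253 CPM in NK cells (0.612). Uqcrfs1, the Rieske iron-sulfur protein, had a ratio above 1 in all 5 classes, with 163 and 179 CPM in NKT-like cells (1.04 to 1.16) and 189 and 259 CPM in pDC, and the interval lay above 1 in NKT-like cells alone. Uqcrh, the hinge protein and the member of this complex with most UMIs, was at 841 and 891 CPM in NKT-like cells (1.06) and 705 and 684 CPM in B cells (0.970). Within one complex, then, members lay on both sides of 1. In pDC, Uqcrc2, a core protein, was at 113 and 191 CPM (1.70, 1.12 to 2.52), and Ndufs4 of complex I at 117 and 214 CPM (1.83, 1.23 to 2.67), each resting on under 40 UMIs in the antibiotic library.

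In complex IV, 10 of 11 genes compared were lower in NKT-like cells, 8 of them past the limit, beside 15.9% of all genes. Most of these calls depend on the total. With ribosomal protein and mitochondrial genes left out of it, 3 nuclear members of all complexes together were past the limit lower in NKT-like cells. Cox5a stood at 399 and 288 CPM (0.721, 0.695 to 0.748), Cox7a2 at 416 and 302 CPM (0.725) and Cox6c at 749 and 576 CPM (0.770). Cox4i1, a subunit that the complex needs early in its assembly, differed less, at 954 and 914 CPM (0.958), as did Cox8a at 1017 and 929 CPM (0.914). The 1 gene that was higher was Cox7a2l, which encodes a factor that joins complexes III and IV into supercomplexes, at 599 and 711 CPM (1.19). In other T cells Cox7a2l was at 799 and 785 CPM and in B cells at 630 and 642 CPM.

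In complex V, Atp5j2 was at 606 and 431 CPM in NKT-like cells (0.711, 0.690 to 0.733) and Atp5k at 313 and 232 CPM (0.743). Both encode small subunits of the membrane sector. Atp5k was lower in all 5 classes, with ratios between 0.634 in NK and 0.778 in B cells. Of the catalytic head, Atp5b (the beta subunit) stood at 595 and 487 CPM in NKT-like cells (0.819) and Atp5a1 (the alpha subunit) at 347 and 356 CPM (1.03). Atp5e, the epsilon subunit, was lower in each class, at 880 and 712 CPM in NKT-like cells (0.809) and 623 and 544 CPM in B cells (0.872).

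Over the 67 nuclear members compared in all 5 classes, 27 were lower in every class, beside 22.4% of the 1081 genes compared in all 5, and 3 (Atp5g3, Uqcrfs1 and Ndufa6) were higher in every class, beside 12.1%. These directions count any ratio below or above 1, whether or not its interval held 1. The classes share the 2 libraries, so these counts are not 5 separate observations of the treatment. With ribosomal protein genes out of the total the direction of members near 1 changes, as the splits above show.

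Members with short transcripts had the lower ratios. The median annotated transcript length was 863 nt over nuclear members and 2817 nt over other genes compared. In NKT-like cells the 37 members under 800 nt had a median log2 ratio of -0.25 and the 47 longer members -0.14, and across members Spearman's rho of length with the ratio was 0.28. Genes other than ribosomal and mitochondrial ones also had lower medians below 800 nt, at -0.20 for 285 genes against -0.01 for 8468 longer genes in NKT-like cells. Ribosomal protein genes, which are also short, did not, with 0.26 and 0.25. These rho are across genes, which are not independent, and the part of transcript length in the differences was not tested.

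The mitochondrial genes did not move as 1 block. In NKT-like cells 11 of 13 were higher, 3 of them past the limit, and in B cells 6 of 12 compared were higher and 1 was past the limit lower, beside the shares of all genes given above. Of the 9 compared in all 5 classes, mt-Nd1, mt-Nd5, mt-Co1, mt-Co2 and mt-Atp6 were higher in each class and mt-Nd4 was lower in each. Among all genes compared in all 5, 12.1% were higher and 22.4% lower in each class. These directions count any ratio above or below 1, and the lowest ratio of mt-Atp6 was 1.01. The count was 13 of 13 higher in NKT-like cells with ribosomal protein and mitochondrial genes out of the total, where mt-Nd4 therefore turned from lower to higher. Under that total the median of all genes was also higher, as given above.

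mt-Nd1 encodes a core membrane subunit of complex I that forms part of the ubiquinone channel, and its ratio was the highest of the mitochondrial genes in all cells. It stood at 1561 and 2308 CPM in NKT-like cells (1.48, 1.45 to 1.501) and at 1310 and 1977 CPM in NK cells (1.51, 1.35 to 1.68). It was at 1892 and 2301 CPM in other T cells (1.22), 2317 and 2587 CPM in B cells (1.12) and 3053 and 3353 CPM in pDC (1.10, 1.00 to 1.20). mt-Nd1 was thus higher in the antibiotic library in every class, most of all in NK and NKT-like cells. In contrast, mt-Nd4, another proton-pumping subunit of the same complex, was at 925 and 887 CPM in NKT-like cells (0.960), 1128 and 957 CPM in other T cells (0.849) and 901 and 742 CPM in NK cells (0.823).

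Among the other mitochondrial genes, mt-Co1, the catalytic subunit of complex IV, was at 3349 and 3898 CPM in NKT-like cells (1.16) and 6155 and 7247 CPM in pDC (1.18, 1.11 to 1.251). mt-Atp6, the proton channel subunit of complex V, was at 4448 and 5257 CPM in NKT-like cells (1.18) and 6222 and 6458 CPM in B cells (1.04). mt-Cytb, the only mitochondrial gene of complex III, was at 1499 and 1582 CPM in NKT-like cells (1.06) and 2253 and 2167 CPM in B cells (0.962). Summed by complex in NKT-like cells, the mitochondrial ratios were 1.24 for complex I, 1.06 for complex III, 1.15 for complex IV and 1.18 for complex V. mt-Nd6, the 1 member transcribed from the other strand, was near the detection limit, at 7.6 CPM in both libraries in NKT-like cells.

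The reading frames of mt-Atp8 (chromosome M, 7766 to 7969) and mt-Atp6 (7927 to 8607) overlap, as do those of mt-Nd4l (9877 to 10173) and mt-Nd4 (10167 to 11544), and each pair is transcribed as 1 messenger RNA. A 3′ tag of the shared transcript falls in the downstream gene, so the low counts of mt-Atp8 (21.8 and 29.7 CPM in NKT-like cells) and mt-Nd4l (66.4 and 70.5 CPM) are uncertain as levels of those genes. The cell rule caps mitochondrial UMIs at 10%, and 13 vehicle barcodes and 1 antibiotic barcode were left out by it.

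**Figure D3:**
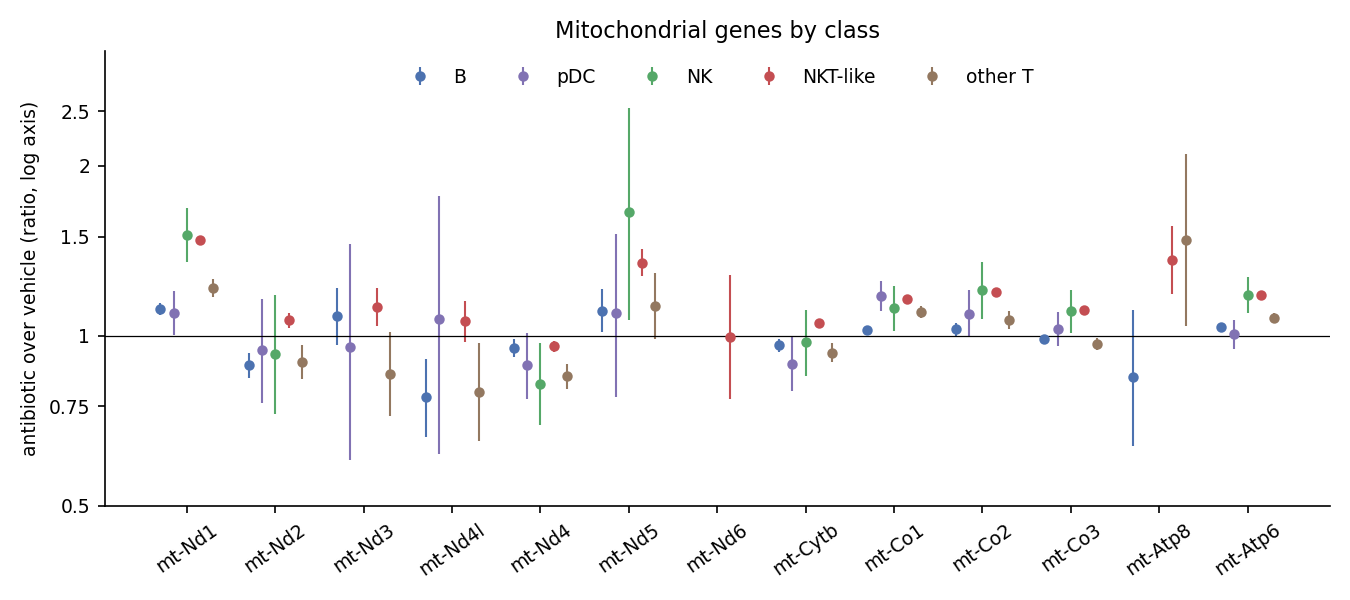
Ratio of the antibiotic over the vehicle library (y axis, log scale) for each mitochondrial gene in 5 classes, with exact 95% intervals, for genes with at least 100 UMIs in that class. mt-Nd1 lies above 1 in each class, at 1.48 in NKT-like and 1.51 in NK cells, while mt-Nd4 lies below 1 in each.

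One nuclear member was nearly confined to a single class. Cox6a2 (chromosome 7, 128205435 to 128206387, minus strand, GRCm38) encodes the isoform of complex IV subunit VIa best known from heart and skeletal muscle, and Cox6a1 the isoform of other tissues. In pDC Cox6a2 stood at 2078 and 1142 CPM (ratio 0.550, 0.473 to 0.635), and in B, NK, NKT-like and other T cells it was at most 5.2 CPM in either. Of all Cox6a2 UMIs in cells, 81.1% and 84.6% lay in the pDC class, and most of the others in cells that had Siglech but met more than 1 class rule (342 of 2390 and 25 of 240 UMIs). The class was defined by Siglech alone, so Cox6a2 played no part in choosing it.

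At least 1 Cox6a2 UMI was found in 92.8% of 153 vehicle pDC (87.5% to 96.4%, exact binomial) and 79.3% of 29 antibiotic pDC (60.3% to 92.01%), at medians of 12 and 8 UMIs per cell. Thinned to 1500 UMIs per cell the shares were 86.3% (79.8% to 91.3%) and 62.1% (42.3% to 79.3%). In B cells, which should lack it, 0.833% and 0.233% of cells held a UMI at median depths of 2506 and 2131 UMIs against 6102 and 5983 in pDC. Barcodes of under 100 UMIs, which mostly hold free RNA, had Cox6a2 at 50.3 and 14.7 CPM. The shares in the 4 lymphocyte classes are read as background, and those of pDC lie far above it.

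Cox6a1 was detected in every class, at 549 and 574 CPM in pDC, 523 and 413 CPM in NKT-like cells, 563 and 518 CPM in NK cells, 440 and 364 CPM in other T cells and 394 and 336 CPM in B cells. Each transcript gives 1 UMI whatever its length, and on that scale Cox6a2 made up 79.1% of the Cox6a1 and Cox6a2 UMIs in vehicle pDC and 66.6% in antibiotic pDC. It made up under 1% in each of the other classes. With Cox6a2 left out, the nuclear share of pDC was 2.501% and 2.46%, and the ratio between libraries was 0.984 (0.952 to 1.02) in place of 0.9504. The lower complex IV sum of pDC (0.886% and 0.765%) likewise became 0.678% and 0.651%.

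The lower Cox6a2 level in antibiotic pDC rests on 29 cells and 203 UMIs. Among cells with at least 3 Siglech UMIs the levels were 2139 and 1286 CPM (0.601, 0.517 to 0.695). Of the 8 pDC markers 3 were higher and 5 lower in the antibiotic pDC, with list sums of 16798 and 15788 CPM, and Siglech itself was at 2025 and 2132 CPM. In all cells Cox6a2 was at 67.2 and 9.4 CPM (0.140, 0.122 to 0.160), while pDC went from 1.70% to 0.411% of cells. In a mixed sample fewer pDC and less Cox6a2 per pDC could not be told apart, whereas here both were lower.

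**Figure D4:**
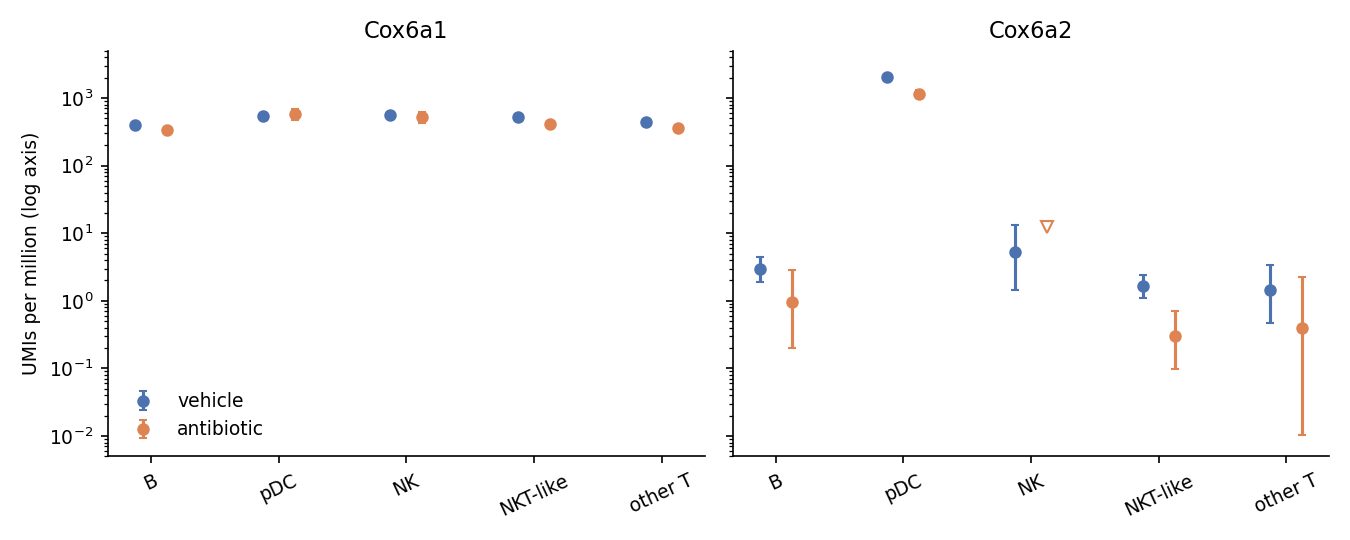
CPM (y axis, log scale) of Cox6a1 (left) and Cox6a2 (right) in 5 classes, vehicle in blue and antibiotic in orange, with exact 95% Poisson intervals. The open triangle marks the level of 3 UMIs in antibiotic NK cells, where no Cox6a2 UMI was counted. Cox6a1 lies between 336 and 574 CPM throughout, and Cox6a2 lies at 2078 and 1142 CPM in pDC and at or below 5.2 CPM elsewhere.

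Other tissue isoforms were absent or scarce. Cox4i2, Cox8b, Cox8c and Ndufa4l2 had 0 UMIs in the cells of either library, which allows up to 3 UMIs in each (a one-sided limit for counting error), and Cox7b2 had 0 and 1. Cox7a1, the muscle isoform of subunit VIIa, had 20 and 8 UMIs and Cox6b2, the testis isoform, 65 and 46. The general isoforms Cox4i1, Cox6b1, Cox7a2, Cox7b and Cox8a were found in every class.

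Atp5g1, Atp5g2 and Atp5g3 encode precursors whose mature protein, the c subunit of the rotor ring, is the same. In vehicle B cells they made up 25.2%, 55.6% and 19.2% of the UMIs of the 3 genes, and in vehicle NKT-like cells 30.6%, 45.8% and 23.6%. In antibiotic NKT-like cells the shares were 27.0%, 48.6% and 24.5%. Atp5g2 gave the most UMIs in each class of both libraries, and Atp5g3 the fewest in B, pDC, NKT-like, other T and NK cells alike. Atp5g3 was at 152 and 156 CPM in B cells and 210 and 276 CPM in pDC (1.31, 0.939 to 1.80). Its ratio was nearest to 1 in NKT-like cells, at 261 and 263 CPM (0.964 to 1.05), and each of its 5 intervals held 1.

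The classes differed from each other in opposite directions for the 2 genomes, in both libraries. Relative to B cells, the nuclear sum was 1.49 and 1.55 times as high in pDC (vehicle and antibiotic library), 1.41 and 1.30 in NK cells, 1.37 and 1.30 in NKT-like cells and 1.20 and 1.21 in other T cells. The mitochondrial sum was 0.546 and 0.612 times that of B cells in NK cells, 0.685 and 0.787 in NKT-like cells and 0.820 and 0.840 in other T cells. pDC alone exceeded B cells for both genomes, with a mitochondrial sum 1.17 and 1.21 times as high. Without Cox6a2 the nuclear sum of pDC was 1.38 and 1.48 times that of B cells. Ribosomal protein genes took 22.6% of vehicle UMIs in pDC and 22.9% in NK cells, but 33.2% in B cells and 39.5% in other T cells. The order of the classes by nuclear sum changed with ribosomal protein and mitochondrial genes out of the total, as given in the closing section.

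In pDC 57 of 82 nuclear members in the vehicle library and 64 of 79 in the antibiotic library were at least 25% higher than in B cells, beside 39.3% and 37.7% of all genes, and 3 and 0 were as much lower, beside 26.5% and 33.0%. In NK cells 58 of 81 and 46 of 78 were as much higher (42.4% and 40.3% of all genes) and 4 and 6 lower (23.3% and 25.2%). In NKT-like cells the counts were 57 of 83 and 45 of 83 higher (36.2% and 33.1%) and 2 and 1 lower (21.6% and 25.4%), and in other T cells 24 of 82 and 22 of 78 higher (24.7% and 24.5%) and 3 and 1 lower (26.9% and 28.1%). Past the limit higher in both libraries were 51 of 79 members in pDC (27.9% of all genes), 42 of 78 in NK cells (28.9%), 41 of 83 in NKT-like cells (26.9%) and 17 of 78 in other T cells (17.9%). Past it lower in both were 0 members in pDC (21.3% of all genes), Ndufs1, Atp5sl and Cox7a2l in NK cells (18.0%), and Atp5sl alone in NKT-like (17.3%) and other T cells (19.7%). Ndufs1 rested on 18 and 4 UMIs in NK cells, and its interval over B cells in the antibiotic library (0.134 to 1.32) held 1. The median log2 ratio of nuclear members over B cells in NK cells was 0.46 and 0.42, and that of all genes 0.21 and 0.17. Core subunits of complex I had sums 0.990 and 1.04 times those of B cells in NKT-like cells, 0.957 and 1.01 in other T cells, 1.04 and 1.098 in NK cells and 1.33 and 1.56 in pDC.

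Ndufv3, a small subunit of the NADH-oxidizing module, had the highest ratio of NKT-like over B cells among nuclear members in both libraries. It stood at 307 and 275 CPM in NKT-like cells against 128 and 125 CPM in B cells, 2.40 (2.24 to 2.57) and 2.21 (1.99 to 2.46) times as high. Atp5h, of the peripheral stalk of ATP synthase, was 1.79 and 1.69 times as high, at 786 and 651 CPM against 439 and 385 CPM. Atp5sl went the other way, at 25.1 and 25.3 CPM in NKT-like cells against 74.8 and 73.1 CPM in B cells (0.335 and 0.346). Despite its symbol, its product is known as DMAC2, an assembly factor of complex I. In NK cells Atp5sl was at 13.1 CPM in the vehicle library (0.175, 0.0833 to 0.323). Relative to B cells, pDC stood out for Uqcr11 of complex III (2.47 and 2.49 times as high). In NK cells Atp5h was 1.99 and 1.98 times as high as in B cells, and Cox8a 1.83 and 1.65 times. Ndufa1 was 2.18 times as high in vehicle NK cells but 1.27 times (0.897 to 1.75) in antibiotic NK cells.

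Single cells overlapped widely between the libraries. In NKT-like cells the nuclear share had a median of 2.43% of a cell's UMIs in the vehicle library, with 5% of cells below 1.86% and 5% above 3.14%, and a median of 2.13% (1.66% to 2.69%) in the antibiotic library. The mitochondrial share had medians of 1.69% (1.13% to 2.55%) and 2.03% (1.37% to 2.82%). In B cells the medians were 1.79% and 1.65% for nuclear and 2.47% and 2.55% for mitochondrial genes. Cells are not replicates, and these ranges describe the spread within each library. Within a class the shares of the 2 genomes were weakly related across cells, with Spearman's rho between -0.26 and 0.04 over the 5 classes of both libraries, where shares of 1 total tend to be negatively related.

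**Figure D5:**
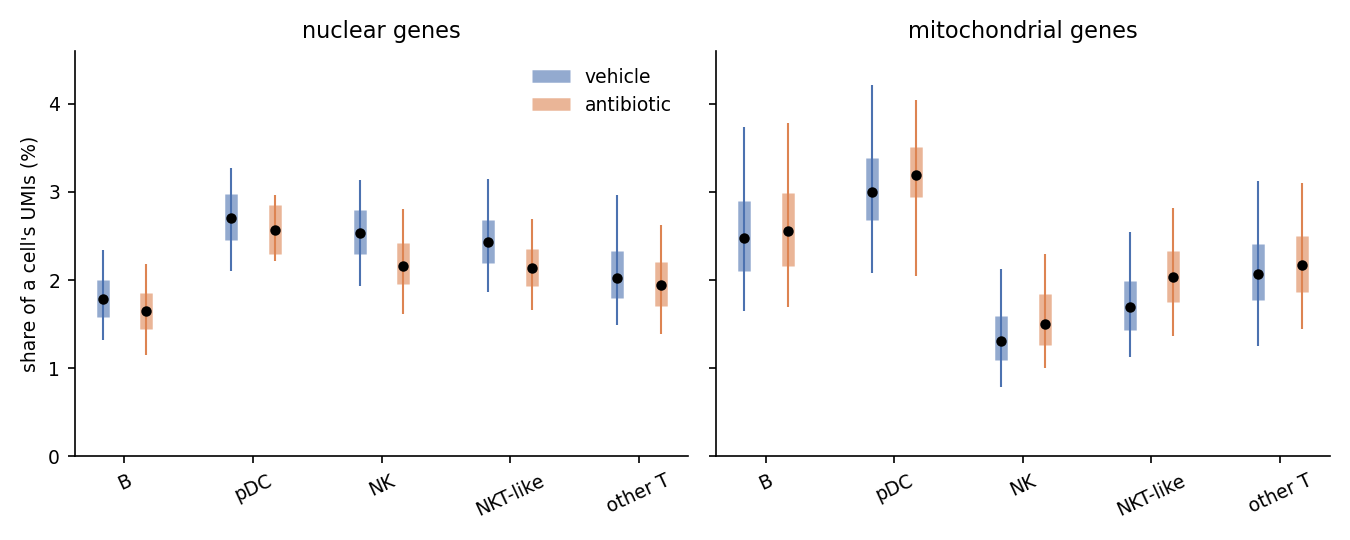
Share of each cell's UMIs (percent, y axis) from nuclear genes (left) and mitochondrial genes (right) in 5 classes, vehicle in blue and antibiotic in orange. Dots are medians over cells, thick bars the middle 50% and thin lines the 5th to 95th percentiles. NKT-like medians are 2.43% and 2.13% for nuclear and 1.69% and 2.03% for mitochondrial genes, with overlapping ranges.

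Genes of the same pathway outside the symbol rule gave mixed values. The counts below have all UMIs as the total, and directions of small differences depend on it. Of 8 electron carriers and complex partners, 7 were lower in NKT-like cells and 3 past the limit lower, beside the 15.9% of all genes. Cycs, the mobile carrier cytochrome c, stood at 277 and 185 CPM (0.667, 0.637 to 0.698), and Atpif1, the inhibitor of ATP synthase, at 87.8 and 55.05 CPM (0.627). The 7 carriers and channels of the mitochondrial membranes were all lower in NKT-like cells and 2 past the limit, among them Slc25a4, an adenine nucleotide translocase (62.9 and 44.2 CPM), with Slc25a3, the phosphate carrier, closest to even (368 and 368 CPM). Of 13 genes of the tricarboxylic acid cycle 10 were lower and 1 past the limit, and Mdh2, malate dehydrogenase, was at 242 and 201 CPM. Of 26 other assembly factors 14 were lower and 12 higher, with 6 and 2 past the limit.

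Sdhaf1, an assembly factor that helps place iron-sulfur clusters in Sdhb, was the most different of these genes. It stood at 40.8 and 99.8 CPM in NKT-like cells (2.45, 2.24 to 2.68), 33.3 and 74.0 CPM in other T cells (2.22), 33.1 and 46.7 CPM in B cells (1.41, 1.15 to 1.74) and 20.9 and 58.0 CPM in NK cells (2.78, 1.255 to 6.07). Sdhb itself lay between 0.949 and 1.07 in these classes. Among 14 genes compared of those that control mitochondrial transcription and translation, 8 were higher and 6 lower in NKT-like cells, and Tfam, which packages and transcribes mitochondrial DNA, was at 47.1 and 51.8 CPM (1.10, 0.999 to 1.21). Ppargc1a, a coactivator of these genes, had at most 2 UMIs in both libraries together in NKT-like cells.

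Several other quantities differed between the libraries along with these genes. The dissociation and stress list (Fos, Jun and others) summed to 1501 and 722 CPM in NKT-like cells, with 8 of 10 genes lower, to 1508 and 668 CPM in other T cells, to 1799 and 1446 CPM in NK cells with 7 of 10 lower and to 1557 and 1300 CPM in B cells. The hepatocyte list summed to 48.0 and 19.3 CPM in NKT-like cells with 10 of 10 genes lower, and the endothelial list to 12.8 and 0.838 CPM with 7 of 7 lower. The erythroid list was at 191 and 7.0 CPM in NKT-like cells, with 83.3% of the vehicle UMIs in 1 cell, and, mostly through 1 cell of each library, at 985 and 2372 CPM in B cells. In other T cells it was at 1268 and 6.4 CPM, with 97.8% of the vehicle UMIs in 1 cell, and in NK cells the neutrophil list was at 686 and 4.1 CPM, with 91.05% of the vehicle UMIs in 1 cell. Without cells that carried neutrophil or erythroid RNA the ratio of mitochondrial to nuclear UMIs was 1.338 times as high in antibiotic as in vehicle NK cells and 1.124 times in other T cells. Cycling cells (at least 2 UMIs of Mki67 and Top2a, a cut chosen after seeing the data) had a higher nuclear share than the rest, 2.99% against 2.26% with vehicle and 2.67% against 2.07% with antibiotics, and numbered 109 and 27. Without them the nuclear ratio was 0.878 in NKT-like cells and 0.942 in other T cells. Barcodes under 100 UMIs held 2.49% and 2.37% nuclear and 3.15% and 2.52% mitochondrial UMIs. The part of stress, free RNA and other cell types in the differences was not tested.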

How the data were processed

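The deposited files are raw count matrices of UMIs per gene and barcode, made by the authors with bcl2fastq and Cell Ranger on mm10 (per the labels, with no version or annotation given in the sources used here) from 1 Chromium 3′ v2 library per group. Multi-mapping reads are left out by that counter by default, so members with near-identical copies may be undercounted.

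Cells were barcodes with at least 1500 UMIs and under 10% mitochondrial UMIs; classes followed the UMI rules given above, with cells that met more than 1 rule (164 and 61) or none (1256 and 752) in no class. No doublet caller was run. Counts were summed per class and library and divided by all UMIs of the class. Because each group has 1 library, no test was made: values carry exact Poisson, Clopper-Pearson or conditional 95% intervals that cover counting error only. Totals were 41474311 and 29811401 UMIs, of which 85.7% and 85.5% lay in cells.

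The members, gene lists and limits were chosen with earlier results of these data known. Genes named in the text are the mitochondrial members, the most abundant members of each complex, the isoform sets, the 5 highest and 5 lowest members of each comparison by the interval bound nearest 1, and a few others chosen after their values were seen. Positions came from GENCODE vM21 and upstream windows from RefSeq (GRCm38.p6). The code was tested on simulated data. Sums and intervals were computed with scipy 1.17.1 and numpy 2.4.6, tables with pandas 2.3.3 and plots with matplotlib 3.10.9, under Python 3.11.15.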

Additional observations from a re-analysis of the deposited data

How the results depend on the processing

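There were 122 alternative ratios summed over members, of the antibiotic over the vehicle library or of a class over B cells. Of these, 120 stayed on the same side of 1. Both exceptions were ratios of the antibiotic over the vehicle library. They were the nuclear ratio of pDC, 1.012 with ribosomal protein and mitochondrial genes out of the total (0.9504 otherwise), and the mitochondrial ratio of B cells, 0.975 with at least 3000 UMIs per cell (1.016 otherwise). Of 361 alternative values for 60 named ratios, 358 stayed on the same side of 1. These 60 were the highest and lowest members of each comparison of the antibiotic over the vehicle library, ranked by the interval bound nearest 1. That choice favored ratios away from 1, so most could be foreseen to keep their side. Atp5g3, mt-Nd4 and the complex II genes were not among them, and the count is no check of named members left out.

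The following values left the counting interval of the reported value. Without ribosomal protein and mitochondrial genes in the total, nuclear ratios were 0.9007 in NK, 0.9693 in NKT-like, 0.9967 in all and 0.9582 in other T cells, and mitochondrial ratios 1.210, 1.298, 1.155 and 1.076 in the same order and 1.115 in pDC. With at least 3000 UMIs, nuclear ratios were 0.8994 in B and 0.8914 in all cells, and mitochondrial ratios 1.220 in NK and 1.084 in all cells. With classes weighted alike, the ratios of all cells were 0.8846 and 1.112 for nuclear and mitochondrial genes. With every cell weighted alike, nuclear ratios were 0.8753 in NKT-like and 0.9256 in all cells, and mitochondrial ratios 1.038 in all cells and 1.086 in pDC. Below 5% mitochondrial UMIs, mitochondrial ratios were 1.024 in B, 1.173 in NKT-like and 1.066 in all cells. Without the top 5% of cells by UMIs, which stands in for doublets, nuclear ratios were 0.9241 in B and 0.9161 in all cells, and mitochondrial ratios 1.024, 1.050 and 1.097 in B, all cells and pDC.

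Settings chosen after seeing the data gave these values. Without cycling cells, nuclear ratios were 0.8777 in NKT-like, 0.9164 in all and 0.9416 in other T cells, and the mitochondrial ratio of all cells was 1.050. Without Cox6a2 the nuclear ratio of pDC was 0.9837, and with at least 3 Siglech UMIs its mitochondrial ratio was 1.098.

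For classes over B cells, as means of the libraries, ribosomal protein and mitochondrial genes out of the total gave nuclear ratios of 1.186 in NK, 1.380 in NKT-like, 1.346 in other T and 1.353 in pDC (1.355, 1.336, 1.203 and 1.520 otherwise) and mitochondrial ratios of 0.5059 in NK, 0.9282 in other T and 1.061 in pDC (0.5781, 0.8300 and 1.191). For other T cells the nuclear ratio was 1.178 with every cell weighted alike and 1.260 with cells thinned to 1500 UMIs, where mitochondrial ratios were 0.7781 in other T cells and 1.257 in pDC.

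Members past the fold limit in either direction numbered 15 in B and 17 in all cells with at least 3000 UMIs (8 and 10 otherwise), 7 in NK and 4 in pDC with at least 400 UMIs per gene (24 and 19), 3 in other T cells with every cell weighted alike (7), and 39, 13 and 30 in NK, other T and pDC with no minimum beyond 1 UMI. Without ribosomal protein and mitochondrial genes in the total they numbered 5 in NKT-like (24), 1 in all and 3 in other T cells. Apart from what each setting leaves out, the cause was not tested.

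No paired analysis was possible because each group has 1 library. The 29 antibiotic pDC and 94 antibiotic NK cells limit their classes most. Differences between mice, capture and sequencing cannot be told apart from the treatment.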
